A study of Mus musculus with 4 samples.

Results

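The regions described here are the binding sites of CHD8 in a 3.5-Mb stretch of mouse chromosome 13 that starts at 21 Mb in the mm9 build and is named for its cluster of histone genes and tRNA genes. Members were all peaks of the anti-FLAG ChIP whose summit lay in this stretch, called the span below. They numbered 171 of 22706 peaks in replicate 1 and 195 of 31002 peaks in replicate 2, and their overlaps formed 134 of the 17867 shared regions. A shared region is a set of connected overlapping peaks with at least 1 peak of each replicate. The span was selected on its measured number of peaks, so that number is a description and was not tested. The cells were mouse embryonic stem cells kept on gelatin in 2i medium, with a 3xFLAG tag at the C-terminus of both endogenous copies of CHD8. Of the 4 samples, 2 are anti-FLAG ChIP and 2 are inputs, all from these tagged cells. No ChIP of untagged cells is among them, so signal of the antibody that does not depend on the tag cannot be told apart, and whether the 2 replicates were grown as separate cultures is not given, so their spread may be technical. The ChIP libraries held 3.44 and 3.56 reads per 200-bp window.

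CHD8 is a chromodomain helicase that moves nucleosomes with the energy of ATP. It is known to bind near the starts of active genes, to interact with linker histone H1 and with the beta-catenin and p53 pathways, and to take part in RNA polymerase III transcription of a small nuclear RNA gene. Replication-dependent histone genes are short genes without introns that RNA polymerase II transcribes mainly in S phase; their mRNAs end in a stem-loop in place of a poly(A) tail. The core histones H2A, H2B, H3 and H4 form the nucleosome and H1 binds the linker DNA. Transfer RNA genes are transcribed by RNA polymerase III from promoters inside the gene. Both kinds of gene exist as many near-identical copies. How reads that align to several copies were treated is not given in the sources used here, and the part of such reads in the peaks was not tested.

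No gene annotation or sequence of mm9 was used, so no peak was assigned to a gene and the name of the stretch was not checked against gene positions. A RefSeq gene table of GRCm38, another build, was used for names and gene order alone. It lists 54 protein-coding histone genes of these classes on chromosome 13, of 69 on all chromosomes, and 105 tRNA genes of 433. A first group of 23 histone genes, from H2bc13 to H2bc11, has 31 tRNA genes in between. It holds 1 H1, 7 H2A, 8 H2B, 2 H3 and 5 H4 genes. Then come 1 tRNA gene, n-TSgct5, and a run of 75 genes and pseudogenes of Vmn1r vomeronasal receptors, which are pheromone receptors of sensory neurons. After the last of these stand 45 more tRNA genes and a second group of 31 histone genes from H4c8 to H2ac1, with 5 H1, 6 H2A, 7 H2B, 7 H3 and 6 H4 genes and no tRNA gene in between.

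Promoters of histone genes in this table are shown because they are what the stretch is known for and because H2A and H2B genes often share one. Promoter windows, from 250 bases before to 50 after the start, were at hand for 51 of the 54 genes (52 windows, RefSeq, GRCm38.p6). Windows of 10 of the 13 H2A genes overlapped that of an H2B gene on the opposite strand, by 220 to 279 bases. The H2B partner of H2ac24 has the symbol H4bc24 in the table and was counted as H2B by its older symbol there, Hist1h2br. Each line gives the 250 bases before the start on the gene's own strand, 5′ to 3′. The strand is minus for H1f5 and H4c12 and plus for the others. Capitals mark, on either strand, the TATA element TATAAA, the CCAAT element and an octamer, which reads ATTTGCAT. The genes are the first of each class in gene order with one of these in the part shown; for H2B, the first with an octamer.
H1f5: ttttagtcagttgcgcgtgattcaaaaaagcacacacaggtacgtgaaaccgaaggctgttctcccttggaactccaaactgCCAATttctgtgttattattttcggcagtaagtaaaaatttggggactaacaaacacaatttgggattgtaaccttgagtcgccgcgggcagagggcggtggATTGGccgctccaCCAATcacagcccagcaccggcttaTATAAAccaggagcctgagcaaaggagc
H2ac13: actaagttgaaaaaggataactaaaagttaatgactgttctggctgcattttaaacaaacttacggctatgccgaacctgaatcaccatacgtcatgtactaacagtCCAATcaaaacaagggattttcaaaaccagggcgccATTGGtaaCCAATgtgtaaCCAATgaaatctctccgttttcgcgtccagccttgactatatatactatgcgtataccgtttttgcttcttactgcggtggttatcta
H2bc14: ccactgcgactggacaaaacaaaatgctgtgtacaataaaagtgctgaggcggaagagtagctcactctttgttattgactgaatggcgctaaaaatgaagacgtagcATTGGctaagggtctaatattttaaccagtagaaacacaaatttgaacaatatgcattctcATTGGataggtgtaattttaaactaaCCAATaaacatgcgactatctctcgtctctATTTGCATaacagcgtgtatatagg
H3c10: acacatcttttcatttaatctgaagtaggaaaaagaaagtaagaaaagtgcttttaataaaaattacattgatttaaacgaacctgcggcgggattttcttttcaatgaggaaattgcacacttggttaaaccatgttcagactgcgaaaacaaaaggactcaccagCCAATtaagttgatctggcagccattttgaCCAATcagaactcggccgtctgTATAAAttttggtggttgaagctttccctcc
H4c12: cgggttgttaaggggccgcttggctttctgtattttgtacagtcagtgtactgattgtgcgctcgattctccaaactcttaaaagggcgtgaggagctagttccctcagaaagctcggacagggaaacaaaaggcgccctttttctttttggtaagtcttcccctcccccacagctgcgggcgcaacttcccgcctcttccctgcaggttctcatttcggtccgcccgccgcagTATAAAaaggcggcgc

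TATAAA stood in 31 of the 52 histone windows (59.6%) and in 13.6% of all 32851 promoter windows of the table. CCAAT stood in 44 (84.6%) against 37.4% of all windows. It was found in all 6 H1, 13 H2A, 15 H2B and 7 H3 windows and in 3 of 11 H4 windows. The octamer, known from H2B promoters, stood in 6 of 15 H2B and 5 of 13 H2A windows and in no window of H1, H3 or H4, against 1.74% of all windows. Both strands were searched, and each motif was counted on its own, whether or not it overlapped another. Most H2A windows overlap an H2B window, so a match in the shared part was counted for both genes and such counts are not separate occurrences. These are matches of letters, not sites of a factor, and no peak was placed on them.

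Within the span the CHD8 peaks were gathered in 3 blocks with long empty stretches between them. Shared regions less than 100 kb from a neighbour were joined into blocks, and the 3 blocks of at least 5 regions held 130 of the 134 regions (97.0%) in 1217 kb, 34.8% of the span. The first block, at 21250600 to 21623354, held 24 regions in 373 kb. A second block, at 21801688 to 22143513, held 43 regions in 342 kb. The third block, at 23362165 to 23864709, held 63 regions in 503 kb. The first block had 6.44 regions per 100 kb, the second 12.6 and the third 12.5. The other 4 regions stood alone, at 21076869, 23084083, 24086433 and 24371939.

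The widest empty stretch lay between the second block and the third. From 22143513 to 23084083, over 941 kb, no region was shared; replicate 1 had 0 peaks there and replicate 2 had 1, at 22675278 to 22675510 with a fold enrichment of 5.32. Fold enrichment here is the authors' ratio of the reads at a peak's summit over the peak caller's background. Positions were not carried over between the builds, so whether the Vmn1r run falls in this stretch was not tested. Of the 35 windows of 100 kb in the span, 16 held no shared region and 14 no peak of either replicate. The 6 windows with 10 or more regions held 86 of the 134 regions (64.2%).

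**Figure D1:**
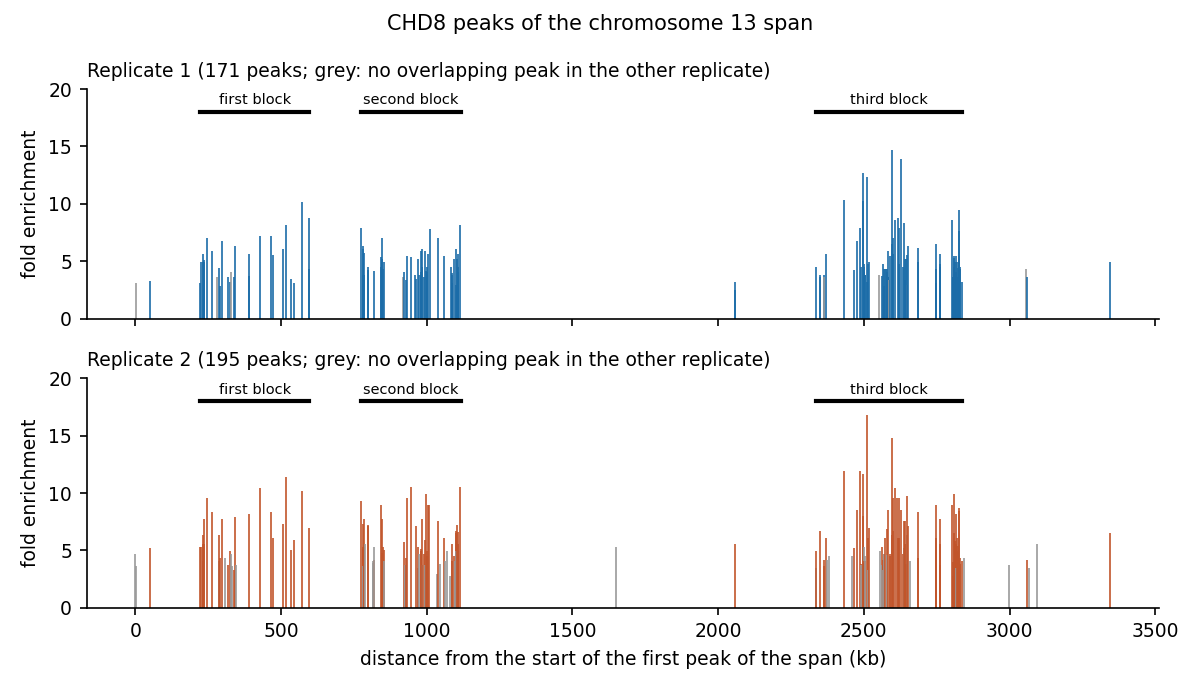
Peaks of the span in replicate 1 (top) and replicate 2 (bottom): each line is a peak, its height the authors' fold enrichment, its place the distance in kb from the start of the first peak; grey lines have no overlapping peak in the other replicate and black bars mark the 3 blocks. The blocks and the 941-kb stretch without a shared region are seen in both replicates, and the tallest peaks, with folds of 14.6 and 16.8, lie in the third block.

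In replicate 1 the blocks held 30, 52 and 82 peaks, of which 28, 51 and 78 overlapped a replicate 2 peak. In replicate 2 they held 31, 65 and 87 peaks, of which 26, 43 and 69 overlapped a replicate 1 peak. The second block thus had the lowest share of replicate 2 peaks with a partner. Peaks covered 5.09%, 9.36% and 11.2% of the blocks in replicate 1 and 6.64%, 12.9% and 14.1% in replicate 2, so most of the DNA within a block lay outside peaks.

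Typical peaks were of similar strength in the 3 blocks, and the highest folds were in the third. Median fold enrichment was 4.96, 4.51 and 4.62 in replicate 1 and 5.92, 5.12 and 5.43 in replicate 2, from the first block to the third. The first block had the highest median and the second the lowest in both replicates. The gap between the replicates within the first block, 4.96 against 5.92, was wider than any gap between blocks within a replicate. That gap includes any shift of a whole list, so it does not measure the spread of a contrast between blocks. The highest fold was 10.1, 8.11 and 14.6 in replicate 1 and 11.4, 10.6 and 16.8 in replicate 2. In the strongest quintile of the whole list by −log10 q stood 5 of 30, 3 of 52 and 15 of 82 peaks in replicate 1, in the same order. In replicate 2 these were 12 of 31, 15 of 65 and 25 of 87, so the first block had the highest share there.

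**Figure D2:**
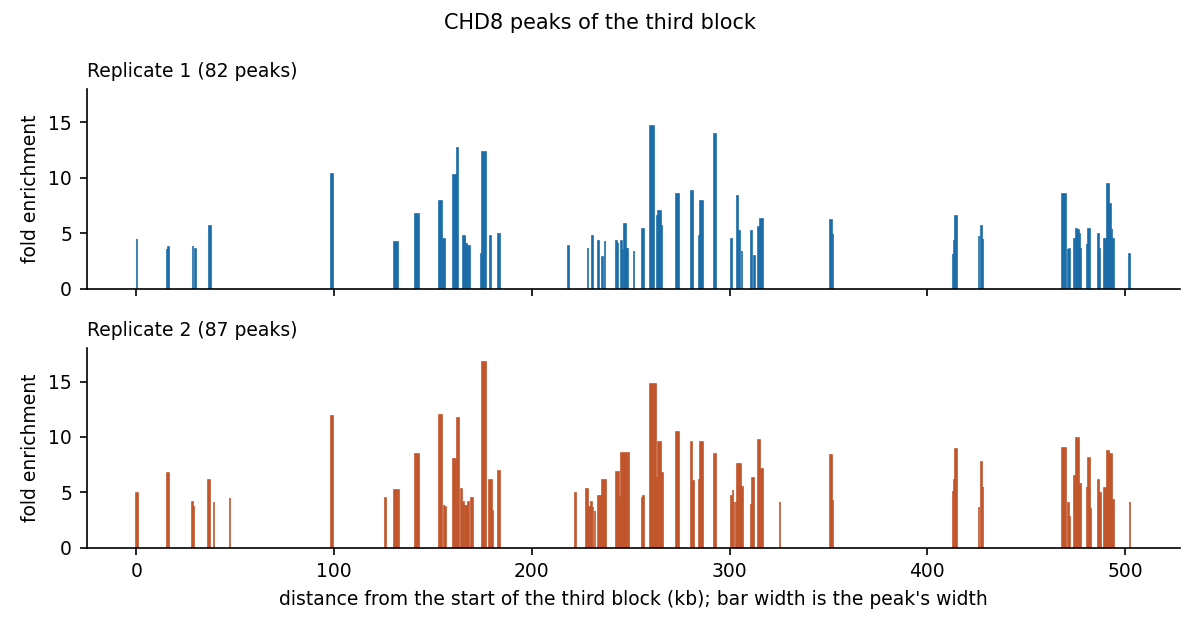
Peaks of the third block in replicate 1 (top, 82 peaks) and replicate 2 (bottom, 87 peaks): each bar spans the width of a peak, its height is the authors' fold enrichment, and the x axis is the distance in kb from the start of the block. Of the 82 and 87 peaks, 78 and 69 overlap a peak of the other replicate.

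Neighbours lay closer in the second block and the third than in the first. From the end of one shared region to the start of the next, the median was 11.4 kb in the first block, 2.93 kb in the second and 2.08 kb in the third. In the third block 31 of 62 gaps (50%) were under 2 kb and 52 (83.9%) under 10 kb; in the second, 18 of 42 (42.9%) were under 2 kb, and in the first, 5 of 23 (21.7%). Over the span the median was 3.48 kb (quartiles 0.39 and 11.7), against 59.3 kb (19.2 and 155) in the rest of chromosome 13. This follows from the density that chose the span.

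The closest neighbours were separated by 30, 49 and 73 bp. The pair at 22028646 to 22029010 and 22029041 to 22029436 had its summits 477 bp apart in replicate 1 and 570 bp in replicate 2. Its folds were 4.05 and 4.91 at the first region and 4.51 and 4.51 at the second, in replicates 1 and 2. In the pair at 23527466 to 23528125 and 23528175 to 23528528 the summits lay 357 and 651 bp apart, with folds of 4.73 and 4.11, then 4.51 and 3.91. The regions at 22111861 to 22114181 and 22114255 to 22114558 had summits 1817 and 625 bp apart. Whether such neighbours are separate sites or an enriched stretch that the caller cut was not tested. When peaks of a replicate less than 1 kb apart were counted as 1 site, the span held 102 sites in replicate 1 and 111 in replicate 2.

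Some stretches were called as 1 peak in 1 replicate and as several in the other. The widest peak of the span, at 23607075 to 23611540 in replicate 2, was 4466 bp wide with a fold of 8.54, and it overlapped 5 replicate 1 peaks, the best of which had a fold of 5.86. The replicate 2 peak at 21263114 to 21265435, 2322 bp wide with a fold of 7.73, overlapped 3 replicate 1 peaks. The region at 23854184 to 23856065 held 3 peaks of replicate 1 and 2 of replicate 2. Of the 134 regions, 107 (79.9%, Wilson interval 72.3 to 85.8) held a single peak of each replicate, against 83.4% (80.3 to 86.1) of the regions in the rest of chromosome 13. Other wide peaks were those at 23621835 to 23624842 in replicate 2 (3008 bp) and at 23622019 to 23624158, 23830457 to 23832479 and 21973556 to 21975408 in replicate 1 (2140, 2023 and 1853 bp).

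The strongest regions of the span were in the third block. Regions were ordered by the worse of their rank percentiles by −log10 q in the whole lists. Of the best 10, 9 lay in the third block, which held 63 of the 134 shared regions of the span. Mean folds of the 10 were 7.61 to 14.7, on 38 to 82 reads at the summit. The best was at 23621835 to 23624842, with folds of 14.6 and 14.8 (mean 14.7 ± 0.10, SD, n = 2) and summits of 64 and 72 reads (exact Poisson intervals 49.3 to 81.7 and 56.3 to 90.7). It ranked 692 of 22706 and 875 of 31002. It was the strongest of the span but stood at place 630 among all shared regions and at place 20 among those of chromosome 13.

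The next regions were less even between the replicates. The region at 23536695 to 23538867 had folds of 12.3 and 16.8 (mean 14.6 ± 3.18, SD, n = 2) on 71 and 82 reads. The region at 23654183 to 23655461 had folds of 13.9 and 8.50 (mean 11.2 ± 3.84, SD, n = 2), although its summits held similar numbers, 67 and 70 reads, and lay 652 bp apart. Its control coverage, the caller's local background relative to the genome-wide one, was 1.13 in replicate 1 and 1.96 in replicate 2. A pair of neighbours stood at 23522368 to 23524082, with folds of 10.3 and 8.0, and at 23524189 to 23525186, with 12.7 and 11.7.

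Of the other regions among the best 10, that at 23460426 to 23461508 had folds of 10.4 and 11.9, that at 23642596 to 23644080 had 8.79 and 9.55, and that at 23852915 to 23853922 had 9.46 and 8.74. The region at 23503228 to 23505030 had 6.72 and 8.50 at a control coverage of 2.09 and 1.96. The only one outside the third block, at 21597832 to 21598678 in the first, had almost equal folds, 10.1 and 10.2 (SD 0.01, n = 2), on 44 and 49 reads, with summits 62 bp apart. The 10 regions had a median summit distance of 78.5 bp. In the whole span 6 regions had a mean fold of 10 or more. By the order of rank percentiles, which is another measure, 5 regions of the span were among the best 50 shared regions of chromosome 13.

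By quintile of the mean rank percentile over all shared regions, from strong to weak, the span held 21, 34, 29, 28 and 22 regions, which is 15.7%, 25.4%, 21.6%, 20.9% and 16.4%. The rest of chromosome 13 had 18.5%, 20.4%, 20.4%, 20.6% and 20.1%. The lowest summit of a shared region held 13 reads in replicate 1, and the lowest in replicate 2 held 15.

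Between the replicates, most shared regions were higher in replicate 2, in the span as in the whole list. After division by ChIP depth the summit reads were higher in replicate 2 at 124 of 134 regions (92.5%, Wilson interval 86.8 to 95.9), against 88.4% of all shared regions and 87.4% (84.6 to 89.8) of those in the rest of chromosome 13. The median ratio of replicate 2 to replicate 1 was 1.34 in the span (quartiles 1.16 and 1.5) and 1.23 (1.09 and 1.42) in the rest. It ran from 0.82 to 2.05, and 1 region was above 2. The 3 blocks had median ratios of 1.33, 1.37 and 1.33, with 23 of 24, 41 of 43 and 56 of 63 regions higher in replicate 2. By quintile of strength, from strong to weak, the median ratio was 1.26, 1.48, 1.40, 1.31 and 1.41 in the span and 1.18, 1.27, 1.29, 1.22 and 1.22 in the rest. All 5 were higher in the span, but these are 2 libraries, and whether the difference exceeds what other replicates would give was not tested. At the best 10 regions the median ratio was 1.10, and 9 of 10 were higher in replicate 2.

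A test between the replicates around their median ratio called no region after adjustment, in the span or elsewhere. An exact binomial test of the summit reads around the median ratio of all regions, 1.25, was made over the 17867 shared regions with Benjamini-Hochberg adjustment. It called 0 regions of the span and 0% of all regions at an adjusted p under 0.05. At an unadjusted p under 0.05 it gave 0 of the 134 span regions, against 1.3% of all regions. That share of all regions is itself below the threshold. The test thus called few regions anywhere, and the 0 is no result about the span. Around the plain depth ratio it gave 9 of 134 (6.72%) unadjusted, against 6.23% of all regions, and 0 adjusted. Summit reads come from each list's own peak maximum, not from 1 fixed position in both.

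**Figure D3:**
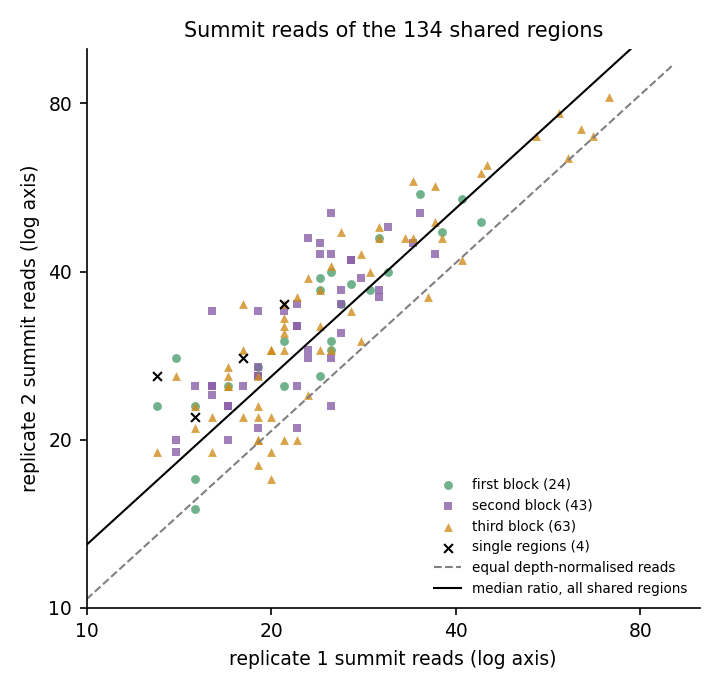
Reads at the summit of the 134 shared regions of the span, replicate 1 on the x axis and replicate 2 on the y axis, both log axes; symbols mark the blocks, the dashed line equal reads after division by depth and the solid line the median ratio of all shared regions, 1.25. Most points of each block lie above the dashed line, and the region with the most reads, 71 and 82, is in the third block.

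Peaks found in 1 replicate alone had a lower median fold than paired ones in both lists and were mostly of replicate 2. Of the replicate 1 members, 162 of 171 (94.7%, Wilson interval 90.3 to 97.2) had a partner, against 87.8% (85.4 to 89.9) in the rest of chromosome 13 and 89.1% in the whole list. Of the replicate 2 members, 142 of 195 (72.8%, 66.2 to 78.6) had one, against 59.0% (56.2 to 61.9) in the rest and 60.9% in the whole list. At this overlap of at least 1 bp, the intervals of span and rest do not overlap in either replicate. They cover counting error only, and neighbouring peaks are not independent. With a reciprocal overlap of 50% required, the shares were 61.4% in the span against 60.1% in the rest in replicate 1. In replicate 2 they were 53.8% against 43.1%. How far the density of peaks in the span raises its share was not tested. The 9 unpaired members of replicate 1 had folds of 2.93 to 4.28, on 12 to 18 reads, with a median width of 266 bp. The 53 of replicate 2 had folds of 2.77 to 6.32, on 15 to 31 reads, with a median width of 283 bp. Its 142 paired members had a median fold of 6.12 and a median width of 823 bp. Of the unpaired peaks, 4 of the 9 and 26 of the 53 had a peak of the other list less than 1 kb away.

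In the strongest quintile of each list all 23 span peaks of replicate 1 and all 52 of replicate 2 had a partner. Nearly all did elsewhere too, with 100% and 99.1% in the rest of chromosome 13. In the weakest quintile of replicate 1, 17 of 20 (85.0%, Wilson interval 64.0 to 94.8) had one, against 66.7% (58.2 to 74.2) in the rest of chromosome 13. In the fourth quintile of replicate 2, 21 of 43 (48.8%, 34.6 to 63.2) had one, against 34.4% (29.4 to 39.8). In the weakest quintile of replicate 2 the span was lower, with 3 of 16 (18.8%, 6.59 to 43.0) against 24.7%. These intervals overlap. At equal strength the span's share was a mean of 5.35 percentage points above that of the rest, against 10.4 without this matching. With only the higher-scoring 50% of each list, the shares were 92.1% against 87.9% in replicate 1 and 66.1% against 67.9% in replicate 2, so the direction was not the same in both.

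The best unpaired peaks were those at 23673747 to 23674528 in replicate 2, with a fold of 6.32 and 159 bp from a replicate 1 peak, at 23663673 to 23663992 with 5.25, and at 21814337 to 21814639 with 5.52. The last of these shared its rank and fold with an unpaired peak at 24119921 to 24120278. In replicate 1 they were those at 24082747 to 24082946 with 4.28, 3486 bp from a replicate 2 peak, at 21356209 to 21356422 with 4.05, and at 23580669 to 23580887 with 3.83. At the borders of the span the first members were the replicate 2 peak at 21027517 to 21028163 with a fold of 4.71 and the replicate 1 peak at 21031030 to 21031332 with 3.07, both unpaired. The nearest peaks before them, at 20898371 to 20898666 in replicate 1 and 20898336 to 20898651 in replicate 2, had folds of 3.89 and 3.82 and overlapped. The last members, at 24372380 to 24373433 and 24371939 to 24373670, had 4.96 and 6.5. The next peaks after the span, at 24852831 to 24853160 and 24852564 to 24854524, had 2.91 and 8.74.

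The span's higher density of peaks follows from how it was chosen, so it cannot be ranked against differences in fold or width. The span held 48.9 peaks per Mb in replicate 1 (exact Poisson interval 41.8 to 56.8) and 55.7 (48.2 to 64.1) in replicate 2. The rest of chromosome 13 held 7.17 and 10.002. Shared regions numbered 38.3 per Mb in the span against 5.54. The intervals cover counting error only, and neighbouring peaks are not independent. The span made up 3.00% of the chromosome's length between its first and last peak and held 17.4% and 14.7% of its peaks. The median fold was 4.51 in the span and 4.51 in the rest in replicate 1 (span quartiles 3.83 and 5.68), and 5.32 against 4.54 in replicate 2 (span quartiles 4.14 and 7.22). The difference in replicate 2 was 1.17 times, and that between the replicates within the span was 1.18 times. Both contain the replicate 2 median of the span, so the gap within the span is no separate measure of spread. In the rest of chromosome 13 the medians of the replicates were close, 4.51 and 4.54. Whether the difference in replicate 2 would recur in other replicates was not tested. Median widths were 517 bp against 475.5 bp in replicate 1 and 558 bp against 472 bp in replicate 2. Peaks over 1 kb wide made up 17.5% (Wilson interval 12.6 to 23.9) of the span's peaks and 21.8% (19.1 to 24.8) of the rest in replicate 1, and 25.1% (19.6 to 31.7) and 23.1% (20.8 to 25.7) in replicate 2, so the replicates differed in direction. The median distance between the 2 summits of a shared region was 83 bp in the span and 88 bp in the rest.

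Replicate 2 had 1.14 times as many peaks as replicate 1 in the span, 1.40 times in the rest of chromosome 13 and 1.37 times in the whole lists. Yet 26.7% (Wilson interval 20.95 to 33.3) of its span peaks stood in the strongest quintile of the list, against 13.5% (9.13 to 19.4) in replicate 1. In the rest the shares were 18.9% and 18.1%. Whether this split between the replicates would recur in other replicates was not tested.

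Control coverage at the span's peaks was above the background less often than in the rest of chromosome 13 in both replicates, though the intervals overlap. The control coverage exceeded the genome-wide background by more than 1% at 27.5% (Wilson interval 21.3 to 34.6) of the span's peaks in replicate 1 and at 27.7% (21.9 to 34.4) in replicate 2. In the rest of chromosome 13 the shares were 36.5% (33.2 to 39.8) and 33.9% (31.2 to 36.7), and over the autosomes outside the span 46.9% and 41.6%. By block, from the first to the third, they were 40%, 26.9% and 22.0% in replicate 1 and 16.1%, 21.5% and 34.5% in replicate 2, so the order of the blocks was reversed between the replicates. Control coverage of at least 2 times the background was found at 2 peaks of each replicate. These are 1.17% and 1.03% of the span's peaks, near the 1.08% and 1.10% of the whole lists. The highest was at 23492507 to 23494254 in replicate 1, with 2.82, and at the overlapping peak from 23492529 to 23494809 in replicate 2, with 2.91. Their summits held 44 and 60 reads but their folds were 4.2 and 5.22. The others were at 23503228 to 23505030 in replicate 1, with 2.09, and 23522445 to 23524043 in replicate 2, with 2.36.

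In 4 other dense windows of the genome the peaks had a larger median width and more often had raised control coverage. The fullest 1-Mb window of the autosomes was that from 23 to 24 Mb in the span, with 64 shared regions. The span was set beside the 4 next fullest windows, on chromosomes 7, 10, 8 and 11, which held 63, 55, 54 and 52 regions. Their peaks had median widths of 593 and 628 bp in replicates 1 and 2, and median folds of 4.71 and 5.12. The strongest quintile held 33.1% (Wilson interval 27.8 to 38.9) and 30.5% (25.9 to 35.5) of them. Control coverage was above the background at 67.6% (61.9 to 72.9) and 59.3% (54.0 to 64.3), more than in the span in both replicates, with intervals that do not overlap. Shares with a partner were 93.1% and 67.0%, within the intervals of the span. The median gap between shared regions was 9.81 kb, and 19.6% of gaps were under 2 kb, against 40.6% in the span. These windows were picked after their values were seen.

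**Figure D4:**
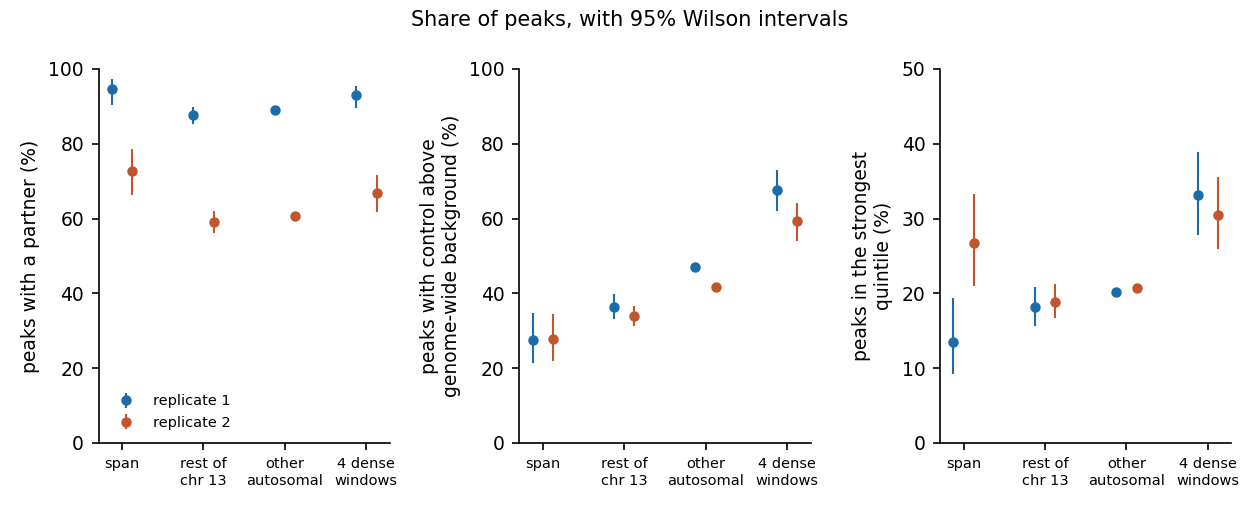
Share of peaks with a partner in the other replicate (left), with control coverage above the genome-wide background (middle) and in the strongest quintile of their list (right), in percent, for the span, the rest of chromosome 13, the autosomes outside the span and the 4 other dense windows; points are the replicates and bars 95% Wilson intervals, and the right axis ends at 50%. The span has the lowest share with raised control coverage in both replicates, and its replicates stand apart in the right panel, at 13.5% and 26.7%.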

How the data were processed

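CHD8 binding was measured by anti-FLAG ChIP and sequencing in 2 samples, with 2 input samples; libraries were tagmented on beads, per the labels' protocols. Bowtie2 2.1.0, MACS2 2.1.1 and mm9 are named per the submitters' processing notes; the sources used here do not give which input served which sample, or any filters. There is 1 deposited peak list for each ChIP sample. The deposited fold enrichment is the ratio of summit reads to the peak caller's background, as the authors deposited it. The deposited −log10 p and −log10 q values belong to the summit, and the score column, as deposited, equals −log10 q times 10 without its decimals. The column of summit offsets placed summits. The authors' values served to describe, rank and filter peaks within a list.

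Summit reads and local control background were solved from fold and p with MACS2's formulas, within 0.002 in log10 p, and tested on simulated data; no member had a second solution. Depth is given as reads per 200-bp window; Wilson and Poisson intervals (95%) cover counting error only. Peaks overlapping by at least 1 bp formed shared regions, represented by their best peak in each list. Quintiles are of the whole lists. The exact binomial test ran over all shared regions; no other comparison was tested, since peaks are not replicates. Regions were named by a fixed rule: the 10 best, the widest, closest and best unpaired, those at the borders and those with the highest control coverage. The members and lists were chosen with earlier results of these data known. Alternatives were the higher-scoring 50% of peaks, equally long lists, reciprocal overlap of 50%, other comparison regions, joined peaks, and each replicate alone. Python 3.11.15, numpy 2.4.6, pandas 2.3.3, scipy 1.17.1 and matplotlib 3.10.9 were used.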

Additional observations from a re-analysis of the deposited data

How the results depend on the processing

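No paired analysis was possible because the inputs have no table here and the ChIP samples form 1 group. Of 48 alternative values for 10 results, 31 moved by less than the spread between replicates or the interval used in its place, or, for counts, by at most 1.5 times. Where a result is the mean over the replicates, its values with each replicate alone lie within that spread by construction. They are counted among the 31 but show no stability. The density ratio of span to rest was a mean of 6.19 over the replicates (5.57 to 6.82 with each alone). It was 7.17 in the higher-scoring 50% of the lists, 4.85 against all other autosomes and 4.45 with peaks under 1 kb apart counted as 1 site. Against the other dense windows it was 0.67, but those were picked as the fullest 1-Mb windows and the span includes long empty stretches. Those 4 held 63, 55, 54 and 52 shared regions. The span's 1-Mb windows from 21 to 24 Mb held 45, 23 and 64. The difference in the share with a partner, 10.4 percentage points (6.93 to 13.8 with each replicate alone), was 1.25 in the higher-scoring 50%, 3.76 against the dense windows and 5.35 at equal strength. The width ratio, 1.13 (1.09 to 1.18), was 1.06 against the autosomes and 1.60 with joined peaks; it reversed to 0.94 in the higher-scoring 50% and 0.88 against the dense windows. The difference in the share with raised control coverage, -7.58 percentage points (-8.97 to -6.20), was -4.32 in the higher-scoring 50%, -16.6 against the autosomes and -35.9 against the dense windows. The ratio of median gaps, 0.059, was 0.10 against the autosomes and 0.11 with regions under 1 kb apart joined. Joining within 50 kb gave 5 blocks instead of 3 (2 within 200 kb). The fold ratio, 1.09, ran from 1 to 1.17 with each replicate alone and fell below 1, to 0.979 in the higher-scoring 50% and 0.998 against the dense windows. The cause of these shifts was not tested. The comparisons with dense windows and at equal strength were chosen after seeing the data. Median summits rest on 21 and 26 reads, which limits what can be seen at single regions.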
